A study of Manihot esculenta with 9 samples.

Results

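The genes described here are 6 B3-type transcription factor genes of cassava (Manihot esculenta) whose transcripts were near 0 in leaves of the transgenic line HOE8. They are 6 of the 33033 genes in the deposited table. Manes.07G020500, Manes.07G020700, Manes.07G021000, Manes.07G021500 and Manes.07G021800 lie on chromosome 7, and Manes.10G124800 lies on chromosome 10. They had been selected on their low read counts in HOE8 against WT and HOE1, so the HOE8 values are given as a description and without a test. The difference between HOE1 and wild type was not part of the choice and was tested. Manes.07G022000, another B3 gene of the same stretch, 3 more on chromosome 10 and Manes.13G043500 on chromosome 13 had HOE8 values as low. They were not among the 6 and are described beside them.

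The series measured leaf RNA in 3 groups of 3 libraries: wild type (WT), and HOE1 and HOE8, a pair of transgenic lines overexpressing MeH1.2, which encodes a linker histone. All plants were untreated, were 2 months old and had been grown from stem cuttings in sterile culture on MS medium. The labels do not give the promoter of the transgene or its insertion site, and do not say whether a library came from 1 plant or from a pool, so p-values measure only the spread between these libraries. Each line is a single transgenic line, and a property of the line cannot be told apart from an effect of the transgene.

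The B3 domain is a plant DNA-binding domain found in several families of transcription factors. RAV proteins, to which the NGATHA branch belongs, and auxin response factors (ARFs) are among these families, together with the LAV family of seed maturation regulators and their repressors and the REM family that holds VERNALIZATION1. In Arabidopsis, NGATHA genes restrain growth at leaf margins and shape the style, RAV1 slows growth, TEM1 and TEM2 (RAV2) delay flowering by repressing FLOWERING LOCUS T, and ARF5 (MONOPTEROS) directs embryo axis and vein formation in response to auxin. A linker histone sits on the DNA where it enters and leaves a nucleosome and favours compact chromatin. Roles are those of the Arabidopsis match named in the table and were not tested in cassava.

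Libraries held 13272047 to 16378389 counted reads, and 3 reads were worth 0.176 to 0.233 CPM in a library, where CPM is the read count scaled to library size with TMM factors. The linker histone gene Manes.08G136300 checked the labels: it averaged 149 CPM in WT, 4617 in HOE1 and 3345 in HOE8. HOE8 library 1 stood apart: the median chi-square over genes was 1.78 against library 2 and 1.95 against library 3, while libraries 2 and 3 gave 0.763 and the WT and HOE1 pairs 0.645 to 0.84 (0.455 for sampling noise). Summed markers of leaf mesophyll, 16 genes with reads in every library, ranged from 5005 to 5361 CPM in WT, 11463 to 11937 in HOE1 and 31509 to 35514 in HOE8. The part of that difference in the results below was not tested, and in whole leaves fewer cells of a type and less RNA per cell cannot be told apart.

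Together the 6 genes held 4962, 5005 and 5570 reads in the WT libraries, 3126, 3381 and 3305 in HOE1, with 4, 10 and 3 in HOE8. The low total was present in every HOE8 library, with 10 and 3 reads left when library 1 is set aside. Over the group, HOE8 held 17 reads of these genes against 15537 in WT and 9812 in HOE1. A gene was called near 0 in HOE8 where its 3 HOE8 libraries held 10 reads or fewer in all and its WT mean was at least 1 CPM. Of 21522 genes with that WT level, 344 met the rule, or 1.6%, and all 6 genes did, as their choice required. In all 6, every HOE8 library was below every WT and every HOE1 library, as in 39.4% and 35.9% of all genes tested, and nothing is read from this since it chose them.

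**Figure D1:**
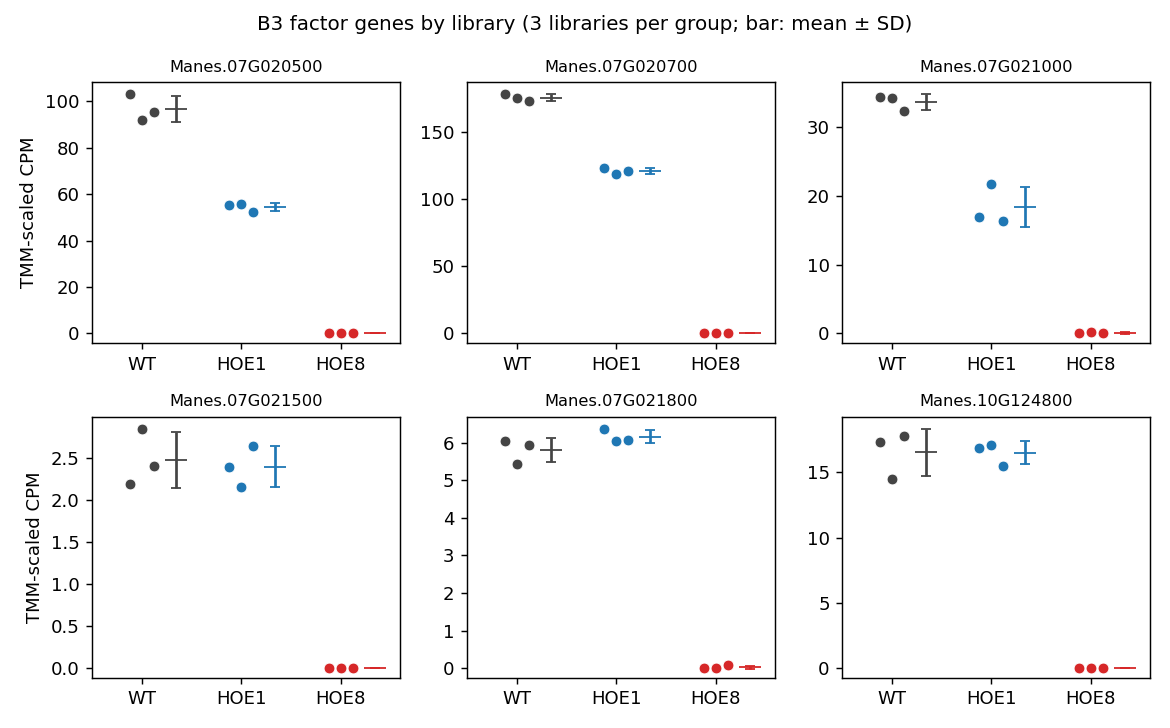
TMM-scaled CPM (vertical axis, from 0, a separate scale for each gene) of the 6 B3 genes in the 9 libraries. Points are libraries and bars are the mean ± SD of 3. HOE8 points lie at or near 0 in every panel, and HOE1 points lie below all WT points for Manes.07G020500, Manes.07G020700 and Manes.07G021000 and among them for the other 3 genes.

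The 3 B3 genes nearest the start of the chromosome 7 stretch, which were also the highest of the 6 per length in WT, had NGATHA4 (NGA4) of Arabidopsis as their best match. Manes.07G020500 (chromosome 7, 1920630 to 1921295) had 1500, 1424 and 1622 reads in WT, 781, 852 and 809 in HOE1, with 4, 4 and 1 in HOE8. The groups did not overlap. The means were 96.7 ± 5.5 CPM in WT, 54.4 ± 1.9 in HOE1 (SD, n = 3) and 0.229 in HOE8, and the WT level was 427 times that of HOE8, with a 95% exact counting interval of 224 to 933.

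Manes.07G020700 (1937142 to 1937910) had 2589, 2701 and 2952 reads in WT, 1741, 1811 and 1868 in HOE1, with 0, 4 and 1 in HOE8. Its WT libraries lay above its HOE1 libraries and both far above HOE8, at 175 ± 2.2, 121 ± 2.1 and 0.128 CPM. The ratio of WT to HOE8 was 1392 (596 to 4288). Manes.07G021000 (1972940 to 1973380) had 501, 528 and 551 reads in WT, 241, 332 and 253 in HOE1, with 0, 2 and 0 in HOE8. It averaged 33.6 ± 1.1 CPM in WT and 18.4 ± 3 in HOE1, and 2 HOE8 reads gave a ratio of 667 with a wide interval of 184 to 5513. Counting intervals cover counting error only.

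A pair of genes matched the RAV branch proper and were expressed at lower levels. Manes.07G021500 (2000632 to 2001033), whose match is RAV1, had 32, 44 and 41 reads in WT, 34, 33 and 41 in HOE1, and none in the HOE8 libraries. WT and HOE1 overlapped, at 2.48 ± 0.33 and 2.41 ± 0.24 CPM. Against a floor of 3 reads over the group, WT was at least 32.9-fold higher than HOE8 and HOE1 at least 31.9-fold higher.

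Manes.07G021800 (2058884 to 2059252), whose match is TEM2, had 6.04, 5.43 and 5.93 CPM in the WT libraries, 6.36, 6.03 and 6.08 in HOE1, with 0, 0 and 1 reads in HOE8. WT and HOE1 again overlapped, with means of 5.8 ± 0.32 and 6.16 ± 0.17 CPM, and HOE8 lay below both. With 1 HOE8 read the WT ratio of 231 had an interval of 41 to 9138.

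Manes.10G124800 (chromosome 10, 23660529 to 23660914) had ARF5 as its match. It had 17.3, 14.5 and 17.8 CPM in the WT libraries, 16.9, 17.1 and 15.5 in HOE1, and no read in HOE8. Its WT and HOE1 libraries overlapped, with means of 16.5 ± 1.8 and 16.5 ± 0.86 CPM, and WT was at least 219-fold higher than HOE8.

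Levels of different genes were compared per length, as the deposited FPKM. In WT the order was Manes.07G020700 (237 ± 3.9 FPKM), Manes.07G020500 (151 ± 9.3), Manes.07G021000 (79.5 ± 2.8), Manes.10G124800 (44.6 ± 4.9), Manes.07G021800 (16.4 ± 0.96) and Manes.07G021500 (6.43 ± 0.84). No neighbours in that order had overlapping WT libraries. In HOE1 the same pair led, Manes.07G020700 at 155 ± 2.8 FPKM and Manes.07G020500 at 80.5 ± 2.8 FPKM. Manes.10G124800 (42.1 ± 2.2 FPKM) and Manes.07G021000 (41 ± 6.6 FPKM) then overlapped, and Manes.07G021800 (16.4 ± 0.48 FPKM) and Manes.07G021500 (5.89 ± 0.6 FPKM) followed. In HOE8, mean FPKM values were 0.334 or less for all 6 genes.

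The comparison of HOE1 with WT asked whether the other overexpressing line also had less of these transcripts. The NGA4 matches fell and the RAV1, TEM2 and ARF5 matches did not pass the test. In edgeR's quasi-likelihood test with Benjamini-Hochberg adjustment over 23434 genes, Manes.07G020500 fell by 0.83 ± 0.09 on the log2 scale (SE, adjusted p = 8.8e-06). Manes.07G020700 fell by 0.54 ± 0.12 (edgeR adjusted p = 0.0019) and Manes.07G021000 by 0.87 ± 0.14 (edgeR adjusted p = 2.8e-04). Their HOE1 levels were 56.3%, 69% and 54.7% of WT, and in each of them every HOE1 library was below every WT library.

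The remaining 3 genes had HOE1 levels of 96.9%, 106% and 99.9% of WT. The log2 difference of Manes.07G021500 was -0.05 (95% interval -0.42 to 0.33, edgeR adjusted p = 0.85). That of Manes.07G021800 was 0.09 (-0.19 to 0.36, edgeR adjusted p = 0.62) and that of Manes.10G124800 was 0.00 (-0.21 to 0.21, edgeR adjusted p = 0.99). So 3 of 6 were called lower in HOE1, where 32.7% of all genes tested were called lower, and 3 of 6 had libraries lying wholly below WT, where 37% of all genes did. The median log2 difference of the 6 was -0.29, beside 0.00 over all genes tested. With 6 genes, these shares are too close to the background to set them apart from other genes.

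**Figure D2:**
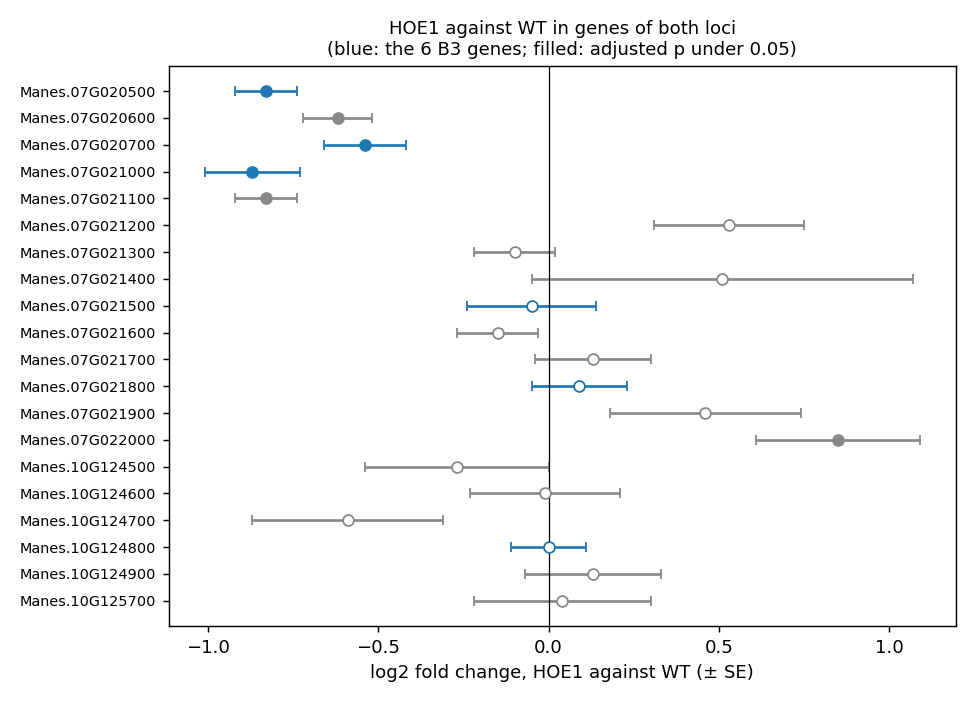
Log2 fold change of HOE1 against WT (horizontal axis, bars ± SE), in chromosome order from top to bottom. Drawn are tested genes from Manes.07G020500 to Manes.07G022000 and, on chromosome 10, only Manes.10G124800 and its near-0 neighbours within 10 genes. Other tested neighbours there, some called higher and some lower in HOE1, are not drawn. Blue marks the 6 B3 genes and filled points have an edgeR adjusted p under 0.05. Filled points below 0 are the 3 NGA4 matches on chromosome 7 and the genes Manes.07G020600 and Manes.07G021100 between and beside them, and Manes.07G022000 is the filled point above 0.

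The chromosome 7 genes are near neighbours. They spanned 139 kb, with gaps of 15.8, 35, 27.3 and 57.9 kb between one and the next. The span held 14 genes, of which 12 had a WT mean of at least 1 CPM, and 9 of those 12 were near 0 in HOE8. The 5 B3 genes were chosen for this, and without them 4 of 7 were near 0, beside 1.6% of all genes of that WT level. None of the 14 was near 0 in HOE1. Of the 7 other tested genes inside the span, 6 were called lower in HOE8 than in WT and the same number lower than in HOE1, where 38.2% and 33.8% of all genes tested were called lower.

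Manes.07G020600 (1930169 to 1930540) and Manes.07G021100 (1982436 to 1982807), which have no description, lie between and just after the NGA4 matches and were likewise lower in HOE1 and far lower in HOE8. Manes.07G020600 had 4220, 4559 and 4365 reads in WT, 2575, 2810 and 2780 in HOE1, with 2, 3 and 7 in HOE8. Manes.07G021100 had 5787, 6364 and 7363 reads in WT, 3441, 3449 and 3510 in HOE1, with 6, 3 and 9 in HOE8. With 12 and 18 HOE8 reads they lay just outside the limit of 10. Their WT levels were 925 (529 to 1790) and 915 (579 to 1545) times those of HOE8, with edgeR adjusted p = 4.8e-12 and 2.8e-12. In HOE1 they fell by 0.62 and 0.83 on the log2 scale (edgeR adjusted p = 2.3e-04 and 1.6e-05).

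The other lowered genes of the span did not pass the test in HOE1. Manes.07G021200 (1986736 to 1989652), a match to COBRA-like protein 6 of a cell wall protein family, averaged 2.92 CPM in WT and 4.23 in HOE1, had no HOE8 read, and was at least 38.6-fold higher in WT (edgeR adjusted p = 4.6e-06). Manes.07G021600, without description, averaged 8.51 CPM in WT and 7.68 in HOE1, was without HOE8 reads, and was at least 113-fold higher in WT (edgeR adjusted p = 1.2e-08). Manes.07G021700, also without description, averaged 3.47, 3.78 and 0.0511 CPM (edgeR adjusted p = 9.4e-08). Manes.07G021400 was uneven in WT, with 84, 88 and 5 reads, and had 1 read in HOE8 (edgeR adjusted p = 0.0015).

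Manes.07G021300 (1991338 to 1996161), described as a ubiquitin family protein, was the exception in the middle of the span. It had 226, 265 and 266 reads in WT, 207, 236 and 230 in HOE1, with 229, 154 and 208 in HOE8. The groups overlapped, the WT level was 1.08 times that of HOE8 (0.97 to 1.21), and edgeR gave an adjusted p of 0.41. Manes.07G020800, a bZIP factor match, and Manes.07G020900 had 0 reads in WT and 2 or fewer in each line, so they show nothing of the difference.

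**Figure D3:**
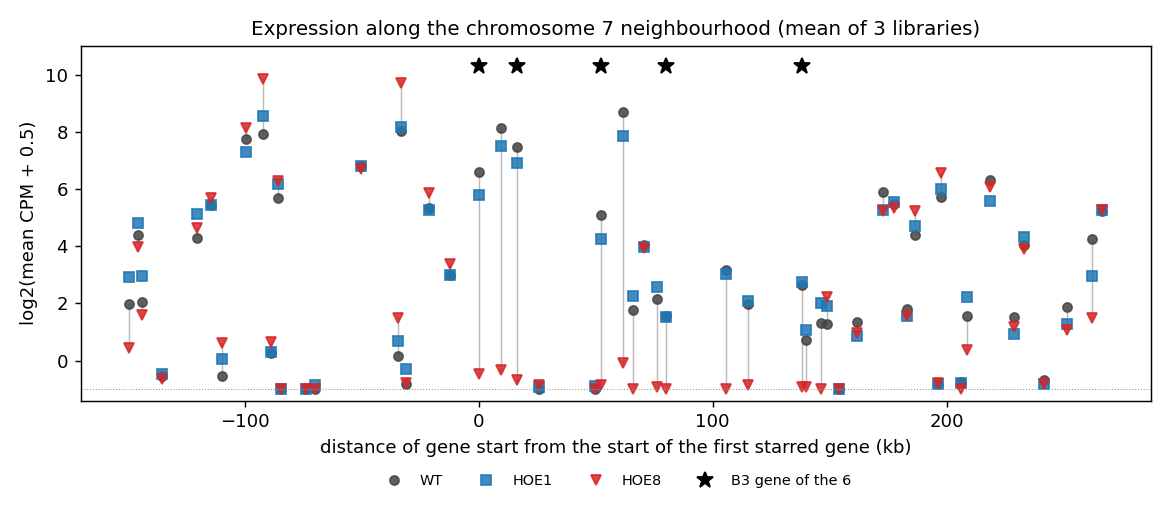
Mean log2(CPM + 0.5) of 3 libraries (vertical axis) for each gene of the chromosome 7 stretch, placed by distance of its start in kb from the start of Manes.07G020500 (horizontal axis). Stars mark the 5 B3 genes, grey lines join WT and HOE8, and the dotted line is 0 CPM. HOE8 triangles lie at or near the dotted line, far below WT, between the first star and the genes just past the last star, apart from Manes.07G021300 and from genes without WT reads; none of the 12 genes before the span with a WT mean of at least 1 CPM does so.

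Directly ahead of the span, HOE8 still had transcripts of the genes expressed in WT, though many differed in level. Manes.07G020400, the bZIP factor match next to Manes.07G020500, averaged 7.46 CPM in WT, 7.42 in HOE1 and 9.78 in HOE8. Among the 20 genes before the span, 12 had a WT mean of at least 1 CPM and none was near 0 in HOE8. With edgeR, 3 of 15 tested there were called lower in HOE8 than in WT and 9 higher, beside 38.2% and 33.7% of all genes tested. Farther ahead, Manes.07G017400 (1685039 to 1685440), without description, was near 0 in HOE8, with 50 reads in WT, 91 in HOE1 and 1 in HOE8. Among the 20 genes after the span, 2 of 16 with that WT level were near 0, and these were the nearest to it.

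Manes.07G021900, without description, averaged 1.16, 1.59 and 0.0245 CPM. Manes.07G022000 (2067145 to 2067513) is a further TEM2 match, with 26, 32 and 35 reads in WT, 39, 72 and 49 in HOE1, and none in HOE8. It rose in HOE1 by 0.85 ± 0.24 on the log2 scale (edgeR adjusted p = 0.013), which none of the 6 genes did, and was at least 26.2-fold higher in WT than in HOE8 (edgeR adjusted p = 1.6e-05). It was named for its near-0 HOE8 value, so the HOE8 p-value is a description only. With Manes.07G022000, the stretch that starts at Manes.07G020500 measured 147 kb.

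Manes.10G124800 had low neighbours of its own. Among the 10 genes before it, 4 had a WT mean of at least 1 CPM and 3 of these were near 0 in HOE8. Among the 10 genes after it, 2 of 5 were, beside 1.6% of all genes of that WT level. From 5 genes before it to 5 after it, 7 had that WT level and 5 of these were near 0 in HOE8, or 4 of 6 without Manes.10G124800 itself. Manes.10G124500 (23606139 to 23606525) and Manes.10G124600 (23611020 to 23611337) are NGA4 matches. Manes.10G124500 had 53, 48 and 39 reads in WT, 37, 48 and 26 in HOE1, with 0, 1 and 0 in HOE8 (edgeR adjusted p = 3.4e-06 for HOE8 against WT). Manes.10G124600 had 35, 26 and 37 reads in WT, 27, 32 and 34 in HOE1, with 0, 1 and 0 in HOE8 (edgeR adjusted p = 1.4e-06). Both were named because they were near 0 in HOE8, so these p-values are a description and no separate support.

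On the other side, Manes.10G124900 (23668966 to 23669296) matched ARF22. It had 65, 54 and 81 reads in WT, 76, 74 and 58 in HOE1, with 2, 0 and 1 in HOE8, a WT ratio of 56.3 with an interval of 19 to 275 (edgeR adjusted p = 4.0e-07). Manes.10G124700, without description, averaged 2.5 CPM in WT, 1.67 in HOE1 and had no HOE8 read. WT and HOE1 overlapped for these 3 B3 genes, as they did for Manes.10G124800, and none of them passed the test in HOE1 (edgeR adjusted p = 0.39, 0.98 and 0.59). Farther out, the protein kinase match Manes.10G125700 averaged 1.93, 1.98 and 0.0762 CPM.

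**Figure D4:**
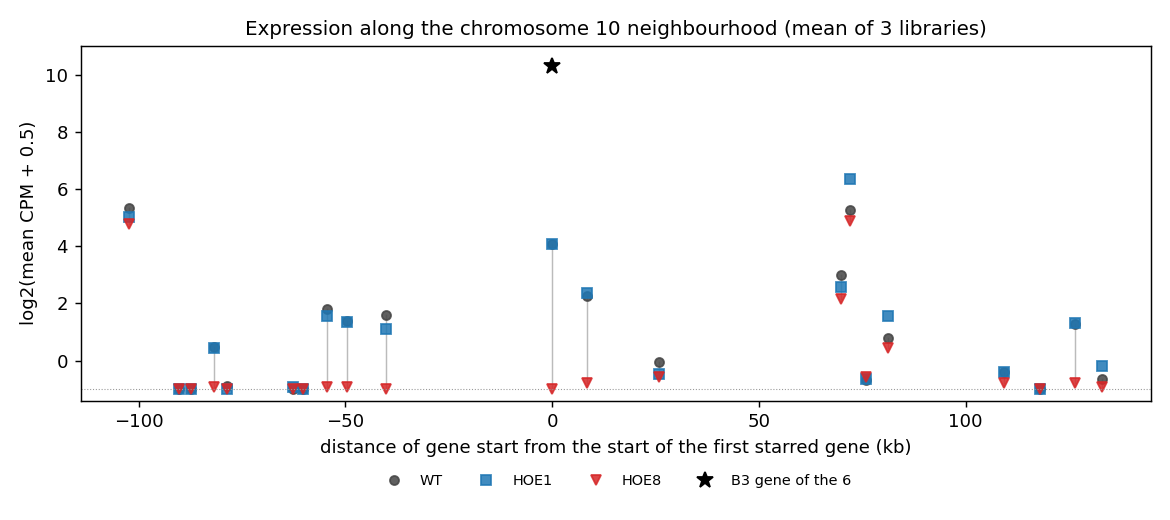
Mean log2(CPM + 0.5) of 3 libraries (vertical axis) for Manes.10G124800, marked by the star, and the 10 genes on either side, by distance of the gene start in kb (horizontal axis). The dotted line is 0 CPM and grey lines join WT and HOE8. The HOE8 triangle is at the dotted line for Manes.10G124800 and for 4 of its 6 neighbours within 5 genes with a WT mean of at least 1 CPM. Over all 10 genes on either side, 3 of 4 before it and 2 of 5 after it with that WT mean were near 0.

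Near-0 genes were also counted in every run of 20 consecutive genes, leaving out the 6, which were chosen for this value. The highest count was 7 on chromosome 10 and 6 on chromosome 7, followed by 4 on chromosome 5 and 3 or fewer on the others (with the 6 included, 8 and 11). Over all chromosomes and without the 6, 41 of 338 near-0 genes, or 12.1%, stood directly beside another. HOE1 had 111 genes near 0 by the same rule, or 0.516%, of which 6 stood beside another, and 68 genes were near 0 in both lines. In the opposite direction, 212 genes were near 0 in WT with at least 1 CPM in HOE8, and 4 of these stood beside another.

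In HOE1 many near-0 genes of HOE8 were also lower. Of 335 tested near-0 genes other than the 6, 236 were called lower in HOE1 than in WT and 27 higher, with a median log2 difference of -1.57. Among these 335 are the 11 within 20 genes of the chromosome 7 span or 10 genes of Manes.10G124800, of which none was called lower and 1 was called higher, with a median of 0.13. Manes.07G020600 and Manes.07G021100, also lower in HOE1, are not among the 11 because of their 12 and 18 HOE8 reads. Just beyond that limit on chromosome 10, Manes.10G126000 and Manes.10G126200 were near 0 in HOE8 and fell in HOE1 by 0.48 and 0.65 on the log2 scale (edgeR adjusted p = 0.0035 and 3.2e-04), and 3 of the 6 B3 genes were lower in HOE1 as well. Beyond it on chromosome 7, the near-0 genes Manes.07G007900 and Manes.07G026900 fell in HOE1 by 2.38 and 0.49 (edgeR adjusted p = 8.1e-04 and 0.0042). Manes.07G017400, likewise near 0, rose there by 0.93 (edgeR adjusted p = 0.0099). The background in that comparison was 32.7% lower and 31.7% higher, and no test between these sets was made. The near-0 rule asked for a WT mean of at least 1 CPM, and HOE1 was set against those same WT libraries. Background genes were not chosen in this way, so the shares are not like for like.

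The chromosome 7 and 10 stretches shared other genes besides B3 factors. Counting 40 genes on either side and leaving out B3 genes, 12 Arabidopsis matches occurred on both, which is 19.7% of the 61 matches on chromosome 7 and 28.6% of the 42 on chromosome 10. From UDP-glucosyl transferase 71B1 through a potassium channel, a T-complex protein, polyubiquitin 10, a protein kinase and a ferredoxin to a bZIP factor, shared matches came in the same order on both chromosomes. They lay ahead of the near-0 B3 genes, apart from a second bZIP match, Manes.07G020800, inside the chromosome 7 span. Other B3 matches lay among or before them. Manes.07G019700 and Manes.07G019800 stood between the protein kinase and the ferredoxin, and Manes.10G120800, Manes.10G120900 and Manes.10G121100 ahead of Manes.10G121800. The other 3 shared matches, a protein kinase (AT1G11050), a breast basic conserved 1 match and a leucine-rich repeat kinase, lay before the near-0 B3 genes on chromosome 7 and after them on chromosome 10. With 20 genes on either side, 4 matches were shared. HOE8 levels of these flanking genes varied. The UDP-glucosyl transferase match Manes.10G121800 fell from 192 CPM in WT to 19.6 in HOE8 (edgeR adjusted p = 1.4e-10), and the AT1G11050 match Manes.10G125700 was near 0, as given above. The protein kinase match Manes.07G019500 averaged 51.3 CPM in WT, 71.9 in HOE1 and 77.4 in HOE8, and its counterpart Manes.10G123000 averaged 123, 118 and 114 CPM.

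The gene models of the 6 were short and without introns. Each model length equalled the distance from start to end on the chromosome, and lengths ran from 369 to 769 bases, with a median of 422. Of 84 other B3 genes with a length, 13 had a model as long as their genomic span, or 15.5%, and their median length was 2071 bases. Over all genes the share was 18.7% and the median 1518 bases. Short models of this kind were not particular to the 6. Of the 6 genes without description inside the span, 4 had a model as long as their span (66.7%), with a median of 357 bases. Of the 338 other genes near 0 in HOE8, 121 did (35.8%), with a median of 1068 bases. At most 123 to 256 codons are possible in these models, and the protein domains they encode were not analysed here. Manes.07G020500, Manes.07G020700 and Manes.07G021000 share a best match, so reads may be split between similar copies, and this was not checked because the sequences were not used here.

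Short B3 genes were compared with long ones, at a limit of 800 bases. Besides the 6, there were 16 short B3 genes, of which 5 had a WT mean of at least 1 CPM and 4 of these 5 were near 0 in HOE8. These 4 were Manes.07G022000, Manes.10G124500, Manes.10G124600 and Manes.10G124900. All of them are neighbours of the 6 described above, and the exception lies outside those neighbourhoods, so length and position cannot be told apart. Over all genes of that WT level, short or long, 1.6% were near 0. The exception, the ARF22 match Manes.10G120800 (chromosome 10, 23285138 to 23285635), had 56, 74 and 97 reads in WT, 113, 95 and 90 in HOE1, with 105, 61 and 59 in HOE8. Of 54 longer B3 genes with that WT level, 1 was near 0 in HOE8.

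That longer gene was Manes.13G043500 (chromosome 13, 4752547 to 4755228), the match of ABI3, a seed maturation and abscisic acid regulator. It had 74, 64 and 70 reads in WT, 207, 210 and 222 in HOE1, and none in HOE8. It rose in HOE1 by 1.68 ± 0.12 on the log2 scale (edgeR adjusted p = 3.3e-06) and was lower in HOE8 (edgeR adjusted p = 9.1e-08), a pattern that none of the 6 genes had. It was named for its near-0 HOE8 value, so the HOE8 difference and its p-value are a description only. Seed markers (7 genes for 2 Arabidopsis genes, of which 2 had reads in every library) summed to 81.1 to 85.3 CPM in WT, 84.3 to 88.1 in HOE1 and 30.3 to 36.5 in HOE8, and their part in this difference was not tested.

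**Figure D5:**
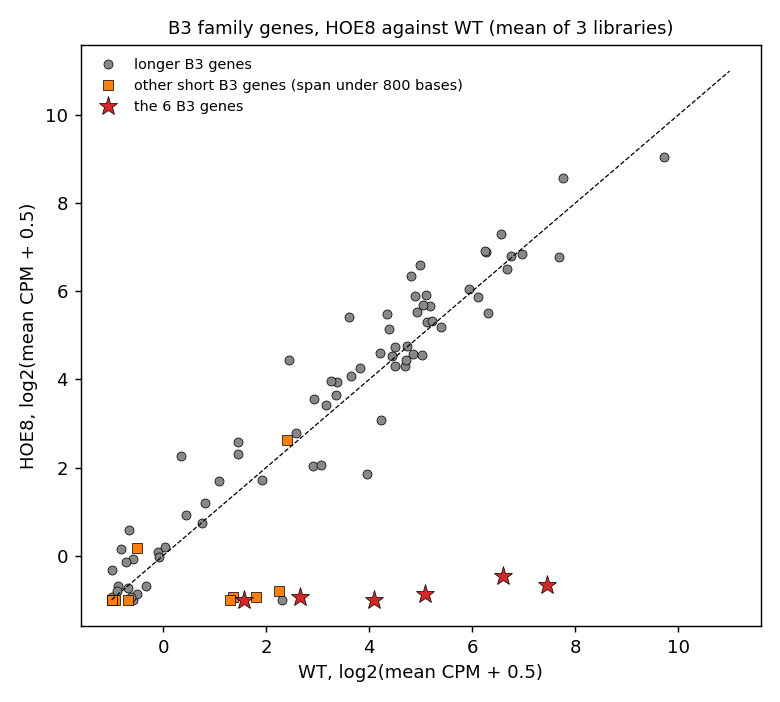
Mean log2(CPM + 0.5) of 3 libraries in HOE8 (vertical axis) against WT (horizontal axis) for B3 genes, with the line of equality dashed. Red stars are the 6 genes, orange squares are other B3 genes spanning under 800 bases, and grey circles are longer B3 genes. The stars and 4 of the 5 orange squares with a WT mean of at least 1 CPM lie along the bottom edge, with 1 grey circle, and the other grey circles with that WT mean lie off this edge, on both sides of the line.

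Over the rest of the B3 family, calls in HOE8 went in both directions. Without the 6, the B3 list held 109 genes, and 70 were tested. In HOE8 against WT, edgeR called 31 higher and 20 lower, 72.9% in all, beside 71.9% of all genes tested. In HOE1 against WT it called 30 higher and 15 lower, 64.3% beside 64.4%. In HOE8 against HOE1 it called 30 higher and 21 lower, 72.9% beside 66.5%. Without HOE8 library 1, the count in HOE8 against WT was 54 of 72 tested, in place of 51 of 70. Over all genes the count was then 17294 of 23710 tested, in place of 16841 of 23434. The list was made from the word B3 and Arabidopsis matches and caught 9 genes of other families, and missed 3 ARF22 matches. Corrected after the descriptions had been read, the list had 64 tested genes, with 27 higher and 18 lower in HOE8 against WT and 28 higher and 11 lower in HOE1 against WT.

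By class, the 30 tested ARF matches had 17 higher and 4 lower in HOE8 against WT with edgeR, beside 33.7% higher and 38.2% lower over all genes tested, a background that holds for each class below, with a median log2 difference of 0.37. Manes.10G107900, an ARF1 match, averaged 4.93 CPM in WT, 13.3 in HOE1 and 21.2 in HOE8 (log2 difference 2.11, edgeR adjusted p = 5.4e-08 for HOE8). Manes.01G245000, an ARF11 match, averaged 11.7, 22.5 and 42.5 CPM (1.86, edgeR adjusted p = 1.0e-09). The long gene that shares the ARF5 match with Manes.10G124800, Manes.18G015400 (chromosome 18, 1222441 to 1229122), had 462, 492 and 569 reads in WT, 233, 285 and 300 in HOE1, with 244, 319 and 351 in HOE8. Its log2 difference from WT was -0.83 in HOE1 and -0.49 in HOE8 (edgeR adjusted p = 8.8e-05 and 0.0026), so this longer ARF5 match was lower in both lines but far from 0.

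Of 8 tested RAV and NGATHA matches other than the 6, 6 were lower and 1 higher in HOE8 against WT by edgeR, and 3 of the 6 were Manes.07G022000, Manes.10G124500 and Manes.10G124600. The NGA1 match Manes.01G238800 averaged 69.1 ± 2.4 CPM in WT, 26.5 ± 0.53 in HOE1 and 58.3 ± 8.1 in HOE8, so its larger difference was in HOE1 (log2 difference -1.38, edgeR adjusted p = 2.4e-07). Manes.14G098000, a TEM1 match, was uneven in WT, with 19, 1336 and 99 reads, beside 2301, 2528 and 2601 in HOE1, with 1379, 1209 and 1247 in HOE8, and did not pass the test in HOE8 (edgeR adjusted p = 0.13).

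Among the LAV and REM classes, the VAL2 match Manes.09G117700, a relative of ABI3 that represses seed genes, averaged 18.3, 21.2 and 7.92 CPM (HOE8 against WT -1.21, edgeR adjusted p = 3.5e-06). The VRN1 match Manes.07G113100 averaged 7.9 CPM in WT, 2.25 in HOE1 and 3.67 in HOE8 (edgeR adjusted p = 1.3e-06 and 2.8e-05). LAV matches counted 0 higher and 2 lower of 5 in HOE8 against WT, and REM matches 2 higher and 3 lower of 9. The ARF2 match Manes.05G068300, listed as near 0 in WT, had 2, 3 and 1 reads there and 6, 15 and 19 in HOE8.

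Genes outside the B3 family came closest to the mean pattern of the 6. Likeness was the root mean square difference over the 9 libraries of log2(CPM + 0.5) less its mean, among 21516 genes with a WT mean of at least 1 CPM, whose median was 2.45. The nearest were Manes.13G056600, a UDP-glycosyltransferase match (0.13), Manes.17G062700, of unknown function (0.15), Manes.08G118700, a heat shock protein 70 match (0.16), and Manes.10G126000, without description (0.17). Then came Manes.07G058800 (0.22), Manes.07G026900 (0.28), the cytochrome c biogenesis match Manes.03G116500 (0.28) and the glyoxalase match Manes.04G115700 (0.30). The score includes the HOE8 libraries that chose the 6, so a large fall in HOE8 counts toward it, and it is a description only. Manes.13G056600, Manes.17G062700, Manes.08G118700 and Manes.03G116500 had 69, 14, 12 and 79 reads over HOE8 and were not near 0 by the rule. Single B3 genes lay 0.18 (Manes.10G124800) to 1.27 (Manes.07G021500) from their own mean. Manes.10G126000 (chromosome 10, 23810531 to 23810932) had 286, 276 and 306 reads in WT, 175, 212 and 209 in HOE1, with 1, 0 and 0 in HOE8, and lay within 1 Mb of Manes.10G124800.

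Flowering genes were examined because TEM and VRN1 proteins act on flowering in Arabidopsis. Of 39 matches to vernalization and flowering genes, 29 were tested. In HOE8 against WT, edgeR called 9 higher and 11 lower (69% beside 71.9% of all genes), and in HOE1 against WT 10 higher and 11 lower. FLOWERING LOCUS T, the target of TEM repression, had a pair of matches. Manes.12G001600 had 0 reads in all 9 libraries. Manes.13G000800 had 6, 7 and 0 reads in the HOE8 libraries, a mean of 0.332 CPM, and 0 in the others, and was not tested.

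The flowering genes that moved at least 2-fold in HOE8 went both ways. The CONSTANS match Manes.01G024100, a day length regulator, rose by 2.39 on the log2 scale (edgeR adjusted p = 3.5e-07), the polycomb methyltransferase match Manes.05G004000 by 2.55 (edgeR adjusted p = 7.1e-07), and the VIN3-like match Manes.05G190100 by 2.48 (edgeR adjusted p = 2.9e-06). The last 2 averaged only 1.35 and 0.65 CPM in WT. More highly expressed genes with the same matches did not rise past the test. Manes.01G228300 (70.8 CPM in WT), which shares the match of Manes.05G004000, differed by 0.11 (edgeR adjusted p = 0.12). The VIN3-like matches Manes.06G023300 and Manes.S055500 (49.7 and 69.1 CPM) differed by -0.25 and 0.03 (edgeR adjusted p = 0.0024 and 0.69). Among 5 SVP matches, floral repressors, Manes.02G145300 fell by 3.05 and Manes.07G038600 by 1.78 (edgeR adjusted p = 1.7e-06 and 3.0e-06). The other SVP matches changed less than 2-fold: Manes.10G099000 fell by 0.86 (edgeR adjusted p = 2.9e-06), while Manes.18G059200 rose by 0.97 and Manes.12G126800 by 0.46 (edgeR adjusted p = 3.8e-08 and 1.5e-05). The FRUITFULL match Manes.14G088500 fell by 1.05 (edgeR adjusted p = 3.2e-04). Flower organ markers, 16 genes, summed to 12.6 to 15.6 CPM in WT, 12.7 to 13.8 in HOE1 and 10.5 to 17.4 in HOE8, with AP1 (Manes.05G111900) and both SEP3 matches at 0 in all libraries.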

How the data were processed

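Leaf RNA of 9 cassava libraries was sequenced, 3 for each of WT, HOE1 and HOE8, grouped by their titles. The deposited table holds whole-number read counts per gene and library, and FPKM values that the authors computed, per the file headers; each FPKM is the count scaled by gene model length and library total, as the values show. The submitters' processing notes name HISAT2 2.0.4 and StringTie 1.3.0. The genome build, the way reads were counted and the use of strand were not given in the sources used here, and coordinates are those of the table. None of its identifiers matched the RefSeq gene table (0 of 33033), and no sequence was used.

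Tests ran in edgeR 4.0.16 under R 4.3.3. The function filterByExpr, set to 10 reads as the least count, kept 23434 genes, all 6 B3 genes among them. TMM gave the scaling factors, and 1 quasi-likelihood model covered all 9 libraries (common biological coefficient of variation 12.1%). Tests were two-sided, adjusted by Benjamini-Hochberg over all genes tested, at a threshold of 0.05. A gene passes the filter through the groups where it is high. Standard errors are the log2 fold change over the square root of F. A group with 0 reads gives a lower bound against 3 reads over the group, and other ratios have 95% exact counting intervals. The script was tested on simulated counts. DESeq2 1.42.0 and other settings were tried as alternatives.

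The 6 genes, the lists and the tests were chosen with earlier results of these data known. Named genes were the 6; genes inside the span, beside one of the 6 or near 0 in HOE8 nearby; B3 genes with the largest differences per contrast, of which fewer are printed; the 8 with the most similar pattern; and flowering genes called, of which those at least 2-fold changed are printed. Where a gene was named for its near-0 HOE8 value or a large difference, the p-value of that difference describes it and is no separate support. The 9 genes of other families caught by the word B3 are not printed. Marker lists were matched by Arabidopsis identifier.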

Additional observations from a re-analysis of the deposited data

Results flagged for a closer look

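Of the B3 genes named for the largest differences and the flowering genes changed at least 2-fold in HOE8, 4 differed between the lines, with HOE1 and HOE8 moving in opposite directions from WT and the difference between the lines passing edgeR's test. Manes.07G022000, the TEM2 match just past the chromosome 7 genes, was 0.85 on the log2 scale in HOE1 and -7.86 in HOE8, a difference of -8.71 (edgeR adjusted p = 4.0e-06). Its 3 HOE8 libraries had no read, so the fitted HOE8 values depend on the prior count. The same holds for the ABI3 match Manes.13G043500, at 1.68 and -9.02, a difference of -10.70 (edgeR adjusted p = 8.4e-09). Manes.07G022000 and Manes.13G043500 were named for their low HOE8 values, so these p-values are a description only.

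The SOC1 match Manes.01G263500, a flowering regulator, was -1.04 in HOE1 and 1.03 in HOE8, a difference of 2.06 (edgeR adjusted p = 3.7e-05). The ARF16 match Manes.07G099500 was -1.12 in HOE1 and 0.74 in HOE8, a difference of 1.86 (edgeR adjusted p = 3.1e-08). None of the 6 B3 genes was examined in this way, since the HOE8 values chose them.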

How the results depend on the processing

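The 3 NGA4 matches stayed lower in HOE1, and past the threshold, under all 14 alternatives: leaving out single libraries gave -0.86 to -0.78 for Manes.07G020500, -0.55 to -0.52 for Manes.07G020700 and -1.01 to -0.79 for Manes.07G021000. The other 3 stayed short of it. Manes.07G021500 ran from -0.12 to 0.06 (0.06 without WT library 2, 0.03 without HOE1 library 2) and Manes.10G124800 from -0.09 to 0.06 with libraries left out. Manes.10G124800 was 0.01 with DESeq2 size factors, 0.01 with DESeq2, 0.00 with no filter and 0.00 with the 2 groups alone. With the replicate number as a block it was 0.00, and the block changed no call of the 6. Over all genes tested, same-numbered libraries did not deviate together (r from -0.040 to 0.025), which gives no sign of pairing but cannot exclude it. Genes near 0 in HOE8 numbered 174 at 3 reads or fewer and 622 at a WT mean of 0.5 CPM, against 344; with libraries left out the number was 344 to 499, the highest without HOE8 library 1, because the limit of 10 reads then covers fewer libraries. The 11 near-0 neighbours became 11 to 13. Matches shared by the chromosome 7 and 10 stretches fell from 12 to 4 with 20 genes on either side. All other counts stayed within 1.5 times their value. Depth limits the ratios to HOE8, which rest on 0 to 9 reads for each of the 6 genes.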

Other observations

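The ferredoxin match Manes.07G020100, ahead of Manes.07G020500 on chromosome 7, was uneven between libraries of a line. It had 23, 6517 and 6541 reads in HOE1 and 48, 16300 and 16986 in HOE8, so library 1 was the low one in both lines. WT had 3917, 4003 and 4399 reads. Of all genes in the table, 325 had a spread of more than 5-fold between libraries of a group with at least 50 reads in the highest, and none of the 6 B3 genes was among them. Phloem markers (12 genes) summed to 314 to 331 CPM in WT, 238 to 250 in HOE1 and 140 to 143 in HOE8, xylem markers (17 genes) to 50.1 to 51.7, 31.1 to 34.6 and 71.6 to 77.9, shoot meristem markers (9 genes, CLV3 at 0) to 22.2 to 22.5, 30.2 to 32.2 and 62.2 to 65.5, guard cell markers (10 genes) to 110 to 115, 121 to 126 and 168 to 171, and root markers (5 genes) to 13.6 to 15.8, 10.8 to 12.1 and 12.9 to 16.5.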
